A study of Rattus norvegicus with 12 samples.

Results

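The miR-17/92 and miR-106b/25 clusters are a pair of related groups of miRNA genes, and their mature miRNAs were followed in rat fetal lumbosacral cord. The table rows were chosen by name, as all rows for miR-17, miR-18a, miR-19a, miR-19b, miR-20a, miR-92a, miR-106b, miR-93 and miR-25 with any copy or arm. This gave 21 of the 846 rows of the miRNA table, 15 for the miR-17/92 cluster and 6 for the miR-106b/25 cluster. The rule used names only and no measured value, though the members were chosen with earlier results of these data known.

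A miRNA gene is transcribed as a long primary RNA, in which each hairpin is cut out and trimmed to a short duplex. One strand of the duplex, from the 5p or the 3p arm of the hairpin, is usually kept in the silencing complex, while the other is mostly lost. The kept strand pairs with messenger RNAs mainly through its seed, bases 2 to 8, so miRNAs with one seed share many targets. The miR-17/92 cluster is transcribed as 1 primary RNA, is activated by Myc and E2F factors in human cells, and in the mouse promotes proliferation and survival of progenitors in several tissues. In the mouse spinal cord it has been described as sustaining motor neurons. The miR-106b/25 cluster lies within Mcm7, a gene for a subunit of the replicative helicase, and in the mouse has been linked to proliferation of neural stem cells.

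The ARM group consisted of Wistar fetuses on embryonic day 17 with anorectal malformations, in which the hindgut ends abnormally, induced with ETU (ethylenethiourea). The normal group consisted of normal Wistar fetuses of the same day. Each group had 3 miRNA libraries (replicates 4 to 6) and 3 libraries of long non-coding RNA (lncRNA; replicates 1 to 3) from lumbosacral spinal cord, the segments that also supply the pelvic floor and hindgut. No group exposed to ETU without a malformation was used here, so the chemical's effects cannot be told apart from those of the malformation. The labels name no litters and do not say whether fetuses were pooled, and p-values therefore reflect only how far these libraries spread, which may be technical.

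The miRNA libraries held between 11526673 and 13233949 counts, and levels below are CPM, that is counts scaled to a common total after TMM scaling of the libraries. miR-9a-5p, typical of neural progenitors, led the table, at a mean of 331442 CPM in ARM and 316411 CPM in normal cords, and miRNAs of the caudal body axis and of neurons were abundant too, as the tissue label implies. Among miRNAs of other cells, miR-144 and miR-451 of red cells and miR-142 of leukocytes were listed at 0 counts in every library. Other rows of those lists were detected, miR-223-3p at 2.81 CPM in ARM and 2.12 CPM in normal cords and miR-150-5p at 69.1 CPM in ARM and 80.1 CPM in normal cords. Endothelial and smooth muscle miRNAs were abundant, led by miR-126a-3p at 9853 CPM in ARM and 10140.0 CPM in normal cords and miR-143-3p at 9601 CPM in ARM and 8542 CPM in normal cords. ARM replicate 6 stood apart for several of the miRNAs described here.

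The sequences of the abundant strands show how the clusters are related. They were taken from RefSeq (GRCr8), where all 21 rows matched an entry, and are printed 5′ to 3′ with the seed in capitals. The first 4 share the seed AAAGUGC, and miR-18a-5p has the close seed AAGGUGC.
miR-17-5p: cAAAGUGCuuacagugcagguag
miR-20a-5p: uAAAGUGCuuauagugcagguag
miR-93-5p: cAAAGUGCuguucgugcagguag
miR-106b-5p: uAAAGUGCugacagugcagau
miR-18a-5p: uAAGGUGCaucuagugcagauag
Counting positions from 1 at the 5′ end, miR-17-5p and miR-20a-5p differ by C1U and C12U, and miR-17-5p and miR-93-5p by U10G, A11U, C12U and A13C. miR-20a-5p and miR-18a-5p differ by A4G, U9A, A11C and G20A, of which A4G lies in the seed.

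The miR-19 pair carries the seed GUGCAAA, and the pair formed by miR-25-3p and miR-92a-3p carries AUUGCAC. They are shown because these seed groups cross the borders of the clusters, or, for miR-19, occur in the table only in miR-17/92 rows.
miR-19a-3p: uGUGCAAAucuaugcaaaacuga
miR-19b-3p: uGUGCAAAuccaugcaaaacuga
miR-25-3p: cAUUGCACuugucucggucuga
miR-92a-3p: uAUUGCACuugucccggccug
miR-19b-3p and miR-19a-3p differ by C11U alone. miR-25-3p and miR-92a-3p differ by C1U, U14C and U18C over their first 21 bases. The sources used here do not state how the authors assigned reads between such near-identical miRNAs, and the division of counts within a pair is uncertain.

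The 3p strands of miR-106b and of the miR-17 hairpins are shown because the arm ratios below turn on them.
miR-106b-3p: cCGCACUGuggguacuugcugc
miR-17-1-3p: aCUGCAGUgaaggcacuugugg
miR-17-2-3p: aCUGCACUgcaagcacuucuuac
Their seeds differ from those of the 5p strands opposite them. miR-17-1-3p shares its seed with miR-20b-3p, and miR-17-2-3p with miR-191a-3p.

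In GRCr8 the miR-17/92 hairpins lie on the plus strand at chr15:98587848-98588632, a stretch of 785 bases holding 6 hairpins in the order miR-17, miR-18a, miR-19a, miR-20a, miR-19b and miR-92a. The miR-106b/25 hairpins lie on the minus strand at chr12:22156641-22157134, 494 bases with 3 hairpins, inside the span of Mcm7 (chr12:22155921-22163320). Exon and intron bounds of Mcm7 were not used here. A paralogous cluster on the X chromosome (chrX:137342777-137343647, 871 bases, 5 hairpins) gives the same mature miR-17-5p from Mir106a, miR-19b-3p from Mir19b2 and miR-92a-3p from Mir92a2. The counts of those 3 mature miRNAs therefore join both chromosomes. The rows for miR-17-2-3p, miR-19b-2-5p and miR-92a-2-5p are strands of the X hairpins, so that the miR-18a, miR-19a and miR-20a rows, miR-17-1-3p, miR-19b-1-5p and miR-92a-1-5p belong to chromosome 15 alone.

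Together the 21 rows held between 1.32% and 1.65% of all miRNA counts in a library. The miR-17/92 rows summed to 6431, 6782 and 8272 CPM in ARM cords, against 6485, 7066 and 6590 CPM in normal cords. The miR-106b/25 rows summed to 6842, 7207 and 8763 CPM in ARM cords, against 6523, 7467 and 7173 CPM in normal cords. In both clusters ARM replicate 6 was the highest library and the groups overlapped. The mean of the miR-17/92 sum was 7162 ± 978 CPM in ARM and 6714 ± 310 CPM in normal cords (SD, n = 3 each), and that of the miR-106b/25 sum 7604 ± 1020 and 7054 ± 483 CPM. ARM means were 1.07 and 1.08 times the normal means, and 0.984 and 0.996 times without ARM replicate 6. The sums were given no test. In bulk tissue, fewer cells that make a miRNA and less of it per cell cannot be told apart.

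**Figure D1:**
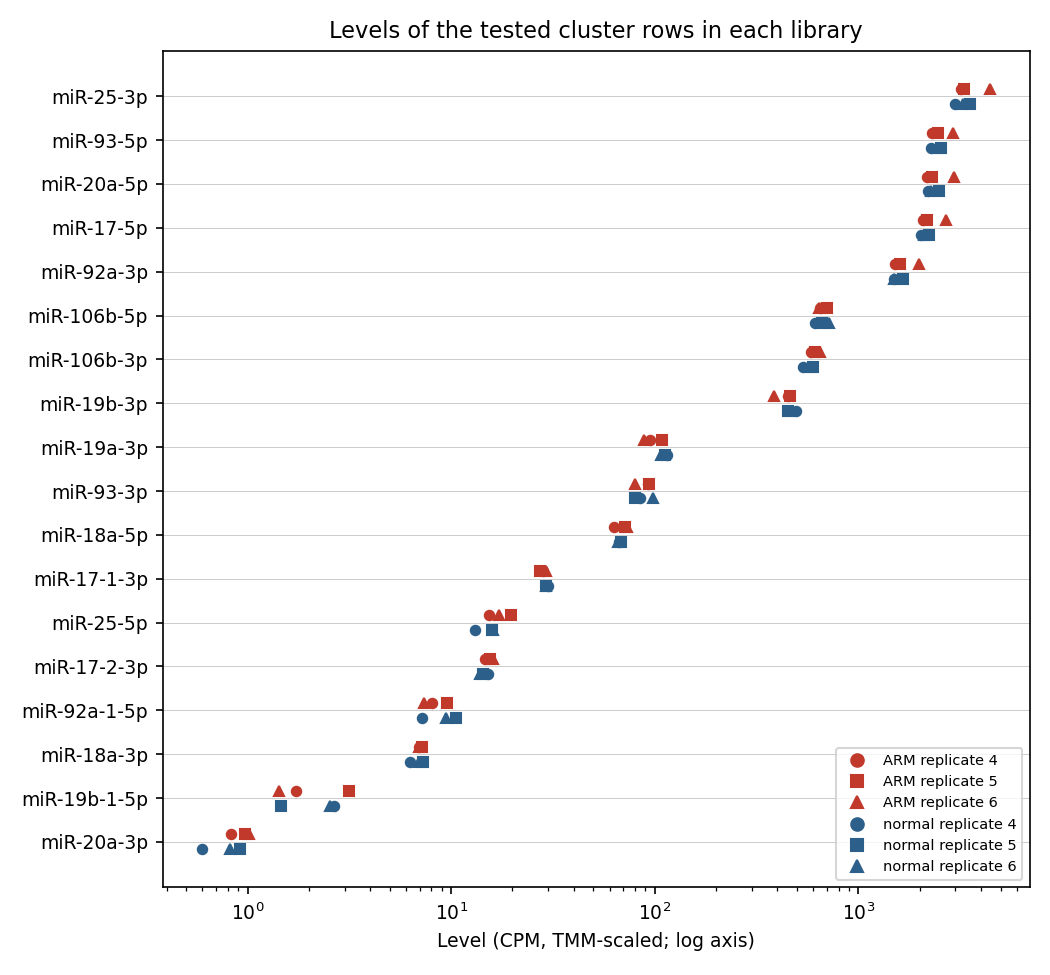
Level of each of the 18 tested cluster rows in every miRNA library, in CPM on a log axis. Red symbols are the 3 ARM libraries and blue symbols the 3 normal libraries; miR-25-3p lies highest and miR-20a-3p lowest, and the red and blue symbols overlap in every tested row.

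No row of either cluster passed the test between ARM and normal cords. With edgeR's quasi-likelihood test and Benjamini-Hochberg adjustment over the 525 tested rows, 0 of the 18 tested cluster rows were called, as was no row of the whole table (0.00% called). Their adjusted p lay between 0.918 and 0.993. None of the 18 had an unadjusted p under 0.05, against 5.90% of all tested rows, and in none were the groups apart, against 8.57% of all tested rows. DESeq2 called 7 of the 525 rows (1.33%), and no cluster row among them.

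The size of the differences was also small. The log2 fold changes, ARM minus normal, ran from -0.20 (miR-19a-3p) to 0.26 (miR-20a-3p), 13 of them positive and 5 negative, with a median of 0.06, while over all 525 rows 265 were positive and 260 negative, with a median of 0.0029. Without ARM replicate 6, 9 of the 18 were positive and 9 negative, with a median of 0.0027. The median absolute log2 fold change was 0.0996 in the clusters and 0.102 over all rows. For 16 of the 18 rows the 95% interval of the edgeR estimate stayed within a 1.5-fold difference in either direction. The exceptions were miR-20a-3p and miR-19b-1-5p, both under 4 CPM in every library. Among all tested rows, 334 of the 525 rows had an interval that narrow.

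**Figure D2:**
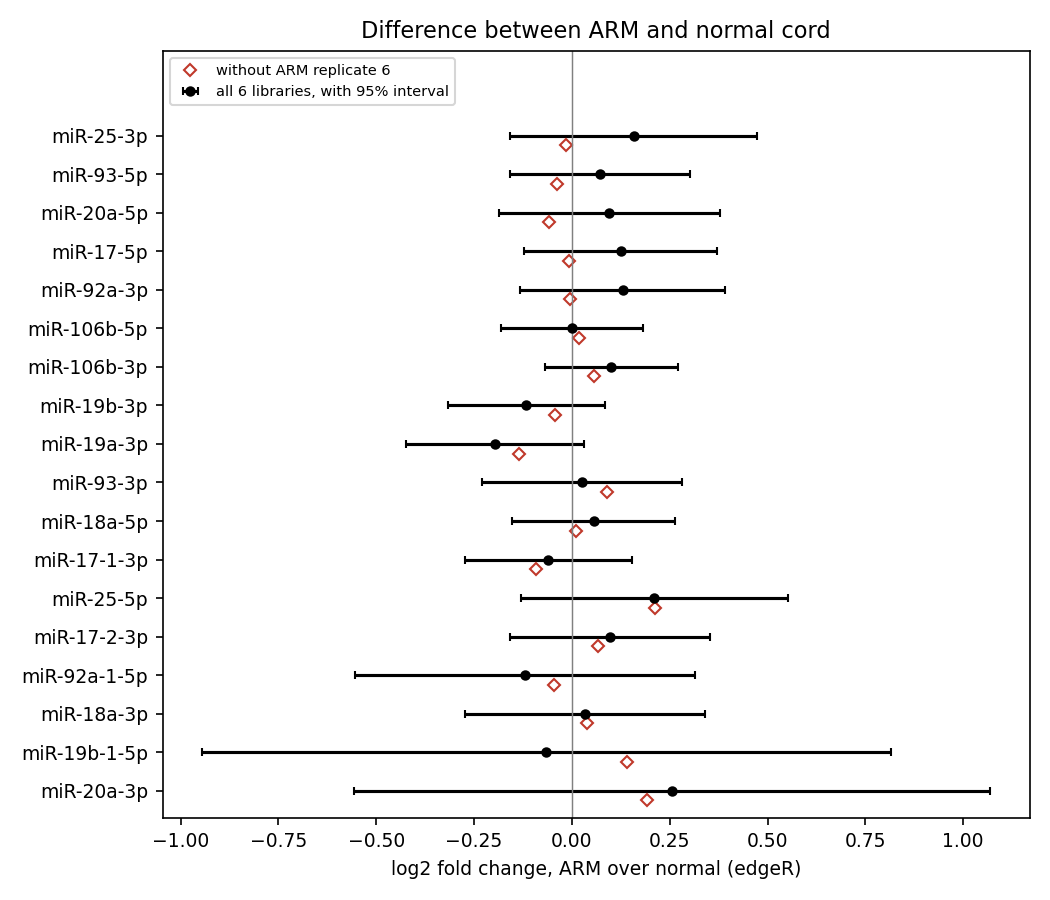
Log2 fold change, ARM minus normal, of the 18 tested cluster rows from edgeR. Black points with bars are the values and 95% intervals over all 6 libraries, and open red diamonds are the values without ARM replicate 6. Every interval includes 0, and the values of miR-25-3p, miR-20a-5p, miR-17-5p, miR-92a-3p and miR-93-5p move to just under 0 when that library is left out.

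The miR-17-5p seed group had the highest summed level. Its members repress regulators of the cell cycle, among them the inhibitor p21 (Cdkn1a) in human cells. miR-93-5p, of the miR-106b/25 cluster, had 2297, 2473 and 2922 CPM in ARM cords and 2279, 2560 and 2476 CPM in normal cords. miR-20a-5p, made from chromosome 15 alone, had 2177, 2307 and 2968 CPM in ARM cords and 2211, 2485 and 2279 CPM in normal cords. miR-17-5p, after which the family is named, had 2073, 2168 and 2702 CPM in ARM cords and 2041, 2219 and 2108 CPM in normal cords. In these 3 miRNAs ARM replicate 6 was the highest of the 6 libraries, while the other 2 ARM libraries lay within the normal range, except that ARM replicate 4 lay under it for miR-20a-5p. The log2 fold changes in edgeR were 0.07 ± 0.10 (SE) for miR-93-5p, 0.10 ± 0.12 for miR-20a-5p and 0.12 ± 0.10 for miR-17-5p, each with an adjusted p of 0.978. Leaving out ARM replicate 6 gave -0.037 for miR-93-5p, -0.058 for miR-20a-5p and -0.0065 for miR-17-5p.

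miR-106b-5p, the other member of that seed group, had 648, 701 and 644 CPM in ARM cords and 610.2, 665 and 716 CPM in normal cords. Here ARM replicate 6 was among the lower libraries, and the group means were nearly equal, at 664 ± 31.6 CPM in ARM and 664 ± 53.2 CPM in normal cords (SD, n = 3 each). The edgeR log2 fold change of miR-106b-5p was 0.00088 ± 0.077 (SE), with a 95% interval from -0.18 to 0.18. miR-18a-5p, with its 1-base change in the seed, was far less abundant than miR-17-5p and miR-20a-5p from the neighbouring hairpins. It had 63.4, 71.6 and 73.3 CPM in ARM cords and 66.5, 68.1 and 65.7 CPM in normal cords, a log2 fold change of 0.06 ± 0.089 (SE) in edgeR, or 0.011 without ARM replicate 6.

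miR-25-3p was the most abundant strand of both clusters and ranked 35 of the 846 rows by mean level. It has been described as repressing the pro-apoptotic gene Bim in human cells, and it shares its seed with miR-92a-3p. miR-25-3p had 3206, 3306 and 4453 CPM in ARM cords and 3002, 3543 and 3283 CPM in normal cords. miR-92a-3p had 1507, 1603 and 1993 CPM in ARM cords and 1494, 1666 and 1505 CPM in normal cords. The pattern was again that of 1 high ARM library over otherwise overlapping groups. The edgeR log2 fold changes were 0.16 ± 0.13 (SE; 95% interval -0.16 to 0.47) for miR-25-3p and 0.13 ± 0.11 for miR-92a-3p, each with an adjusted p of 0.978. Without ARM replicate 6 they were -0.015 and -0.0052.

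The miR-19 pair, which in mouse lymphoma models carries much of the cluster's growth-promoting activity, went the other way in ARM replicate 6. miR-19b-3p had 454, 459.5 and 385 CPM in ARM cords and 495, 450.8 and 461 CPM in normal cords. miR-19a-3p had 95.1, 109 and 88.3 CPM in ARM cords and 115, 112 and 107 CPM in normal cords. Replicate 6 was the lowest of the 6 libraries for both, and for miR-19a-3p only ARM replicate 5 reached the normal range. miR-19a-3p had the lowest unadjusted p of the cluster rows, 0.0821 in edgeR (adjusted p 0.918), with a log2 fold change of -0.20 ± 0.097 (SE; 95% interval -0.42 to 0.03). The value for miR-19b-3p was -0.12 ± 0.085 (adjusted p 0.936). Without ARM replicate 5 the value for miR-19a-3p was -0.30 (unadjusted p 0.0125, adjusted p 0.433 in edgeR). Without ARM replicate 6 the values were -0.13 for miR-19a-3p and -0.043 for miR-19b-3p.

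**Figure D3:**
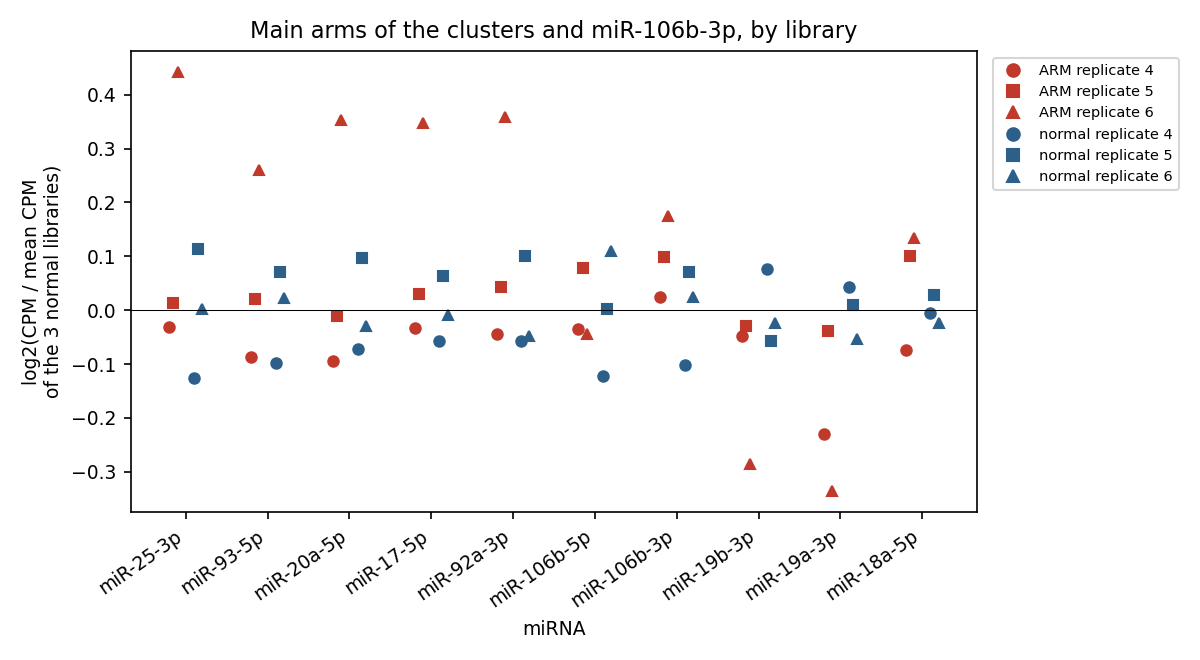
Level of the 9 main strands and miR-106b-3p in every library, as log2 of the CPM over the mean CPM of the 3 normal libraries. ARM replicate 6 (red triangles) lies highest for miR-25-3p, miR-93-5p, miR-20a-5p, miR-17-5p and miR-92a-3p, and by less for miR-106b-3p and miR-18a-5p. It lies lowest for miR-19b-3p and miR-19a-3p.

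Set against the median of the other 5 libraries, ARM replicate 6 was higher by 0.44 on the log2 scale for miR-25-3p, by 0.40 for miR-92a-3p, by 0.38 for miR-20a-5p, by 0.36 for miR-17-5p and by 0.24 for miR-93-5p. It was lower by that measure for miR-19a-3p (-0.30), miR-19b-3p (-0.26), miR-93-3p (-0.20) and the sparse miR-92a-1-5p (-0.35). Of the sparsest tested rows, miR-19b-1-5p was lower (-0.75) and miR-20a-3p higher (0.27). The other tested cluster rows deviated by about 0.15 or less in either direction. miR-20a-5p and miR-19a-3p, both made from chromosome 15 alone, thus deviated in opposite directions within 1 library. Of 350 rows with a mean count of at least 100, 40 in this library lay more than 0.25 above that median and 50 more than 0.25 below it. Of the 15 cluster rows among them, 4 lay above and 3 below. In the other libraries at most 1 cluster row lay above and at most 2 lay below. Over all 350 rows ARM replicate 4 also had 40 above, with 18 below, and normal replicate 4 had 37 above and 34 below, so the library did not stand alone in its counts above. ARM replicate 6 also had the lowest TMM factor (0.967), the highest summed level of caudal axis miRNAs (143065 CPM, against 119279 and 122660 CPM in the other ARM and 125170 to 131207 CPM in the normal libraries), and the lowest summed level of epithelial miRNAs (87.4 CPM, against 384 and 607 CPM in the other ARM and 112 to 172 CPM in the normal libraries). Its summed level of miR-9a strands was the highest too, at 347917 CPM. The other ARM libraries had 336605 and 330080 CPM, and the normal libraries 316164 to 327874 CPM. The part of these features in the deviation was not tested. Across 321 miRNAs, the deviation in this library had a correlation of 0.0012 with GC content, given as a description.

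Ratios between strands of 1 cluster do not depend on library scaling and show the same contrast. Counts of miR-19b-3p, miR-92a-3p and miR-17-5p can also hold reads from the X paralog. For every 100 counts of miR-20a-5p there were 4.37, 4.70 and 2.97 counts of miR-19a-3p in ARM cords, against 5.19, 4.52 and 4.71 in normal cords. For miR-19b-3p the figures were 20.8, 19.9 and 12.97 in ARM cords, against 22.4, 18.1 and 20.3 in normal cords. ARM replicate 6 lay below the other 5 libraries in both ratios. The ratios to miR-92a-3p and miR-17-5p were steadier. Per 100 counts of miR-20a-5p, miR-92a-3p had 69.2, 69.5 and 67.1 counts in ARM and 67.5, 67.1 and 66.0 counts in normal cords. miR-17-5p had 95.3, 94.0 and 91.0 counts in ARM and 92.3, 89.3 and 92.5 counts in normal cords. In the miR-106b/25 cluster, miR-106b-5p had 28.2, 28.3 and 22.0 counts per 100 of miR-93-5p in ARM cords and 26.8, 26.0 and 28.9 in normal cords, again lowest in ARM replicate 6.

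The order of levels did not follow the order of the hairpins. On chromosome 15, miR-17 and miR-20a are separated by miR-18a and miR-19a, whose main strands were lower than those 2 in every library. miR-19b-3p exceeded miR-19a-3p by 4.32 times and miR-92a-3p exceeded miR-106b-5p by 2.45 times, in 6 of 6 libraries each. The counts of miR-17-5p, miR-19b-3p and miR-92a-3p join chromosome 15 and the X chromosome, unlike those of miR-18a, miR-19a and miR-20a. Neighbours in the order that were not separated in every library were miR-93-5p over miR-20a-5p (5 of 6 libraries, a ratio of 1.04), miR-106b-5p over miR-106b-3p (5 of 6, 1.12), miR-25-5p over miR-17-2-3p (5 of 6, 1.09) and miR-20a-3p over miR-19a-5p (4 of 6, 1.13). The differences between miRNAs carry how well each is captured and sequenced, which was not measured here. The comparison of groups within 1 miRNA avoids this only where capture was alike in all libraries, which was not tested.

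**Figure D4:**
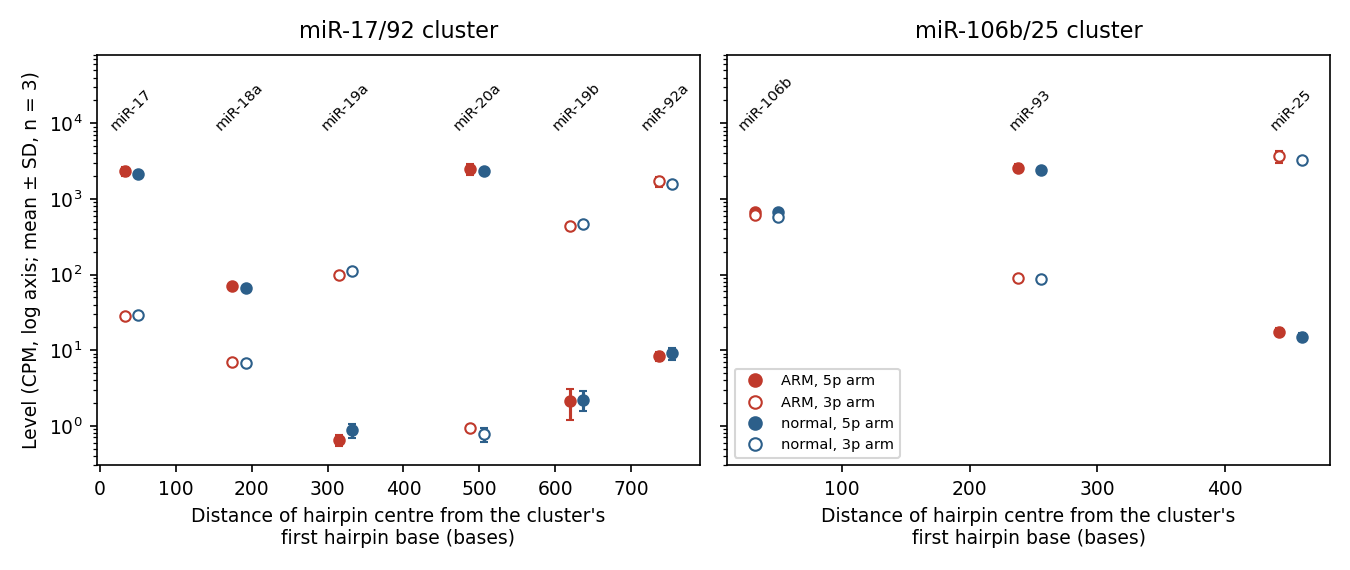
Mean level in CPM (log axis, error bars SD, n = 3) of the 5p and 3p strands of each hairpin, against the distance of the hairpin's centre from the first base of its cluster. Red is ARM and blue is normal. The levels of miR-17-5p, miR-19b-3p and miR-92a-3p join the copies on chromosome 15 and the X chromosome. The main strands of miR-18a and miR-19a sit well under those of miR-17 and miR-20a on either side, and the red and blue symbols of a strand lie together.

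The strand kept from each hairpin was the same in both groups. The 5p strand was the main one for miR-17, miR-18a, miR-20a and miR-93, and the 3p strand for miR-19a, miR-19b, miR-92a and miR-25. miR-106b gave both strands in near equal amounts. miR-106b-3p had 583, 614 and 647 CPM in ARM cords and 534, 602 and 583 CPM in normal cords (log2 fold change 0.10 ± 0.072 SE in edgeR, adjusted p 0.936; 0.057 without ARM replicate 6). The groups overlapped. The 3p strand of miR-106b made up 47.3%, 46.7% and 50.1% of the hairpin's counts in ARM cords and 46.7%, 47.5% and 44.9% in normal cords, an average of 48.1% ± 1.82 in ARM and 46.4% ± 1.35 in normal cords (SD, n = 3 each; exact two-sided permutation p 0.4). The miR-93 3p share was 3.86%, 3.66% and 2.68% in ARM cords and 3.57%, 3.02% and 3.79% in normal cords (exact permutation p 0.9). miR-18a kept the largest minor share of the miR-17/92 cluster, 9.21% ± 0.622 in ARM and 9.30% ± 0.557 in normal cords (exact permutation p 0.9).

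The 3p strands of the miR-17 hairpins, miR-17-1-3p from chromosome 15 and miR-17-2-3p from the X chromosome, together made up 2.03%, 1.94% and 1.65% of the miR-17 counts in ARM cords and 2.16%, 1.92% and 2.01% in normal cords (exact permutation p 0.5). In the mouse cord, miR-17-3p has been described as repressing Olig2, the factor that sets up motor neuron progenitors. miR-17-1-3p had 28.4, 27.2 and 29.3 CPM in ARM cords and 30.0, 29.2 and 29.4 CPM in normal cords. miR-17-2-3p had 14.6, 15.6 and 16.0 CPM in ARM and 15.1, 14.3 and 13.8 CPM in normal cords. In both 3p strands the 6 libraries lay close together and the groups overlapped. miR-20a was the most lopsided hairpin, with a 3p share of 0.038% in ARM and 0.033% in normal cords. ARM replicate 6 had the lowest 3p share of all libraries for miR-17 (1.65%), miR-18a (8.62%) and miR-93 (2.68%). It had the highest for miR-106b (50.1%), miR-92a (99.63%) and miR-25 (99.62%). For miR-19a, miR-19b and miR-20a it was at neither end. Over the 9 hairpins the exact p lay between 0.4 and 1, adjusted p between 0.9 and 1, and no hairpin had groups that did not overlap; with 3 libraries against 3 the smallest p this test can give is 0.1.

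**Figure D5:**
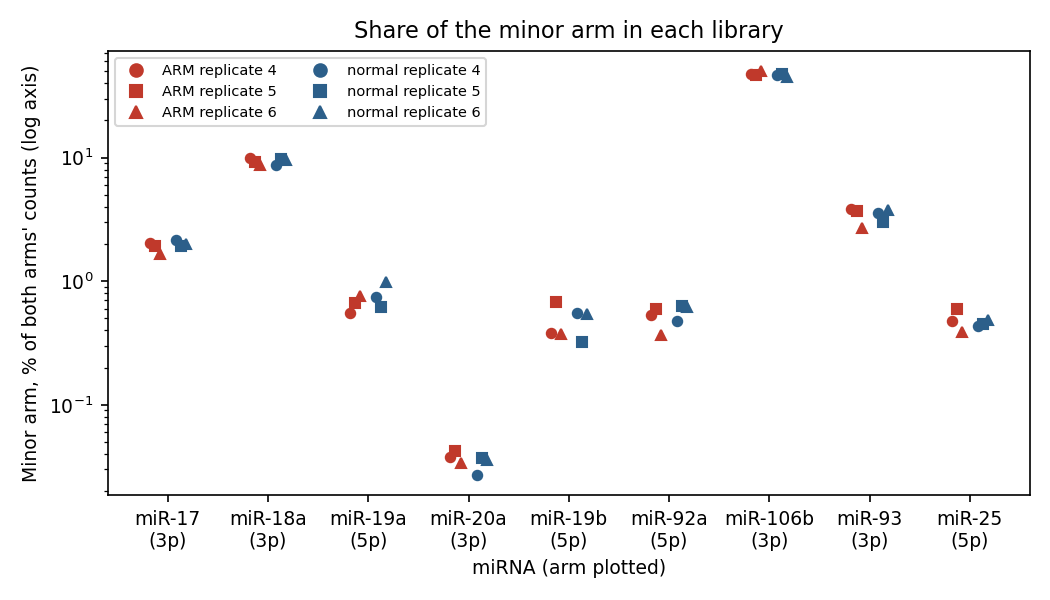
Share of each hairpin's counts carried by its minor strand (named under each hairpin; the 3p strand for miR-106b) in every library, in percent on a log axis. Red symbols are ARM and blue symbols normal libraries, and miR-106b stands near 50% while the other 8 hairpins lie under 10%.

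The remaining strands were sparse. miR-93-3p had 80.4 to 94.0 CPM in ARM and 79.8 to 97.6 CPM in normal cords, and miR-25-5p had 15.3 to 19.6 CPM in ARM and 13.1 to 16.1 CPM in normal cords. miR-92a-1-5p, miR-18a-3p, miR-19b-1-5p and miR-20a-3p lay under 11 CPM in every library. The 3 rows that did not pass the filter on low counts were miR-19a-5p, with 56 counts in all libraries together, miR-19b-2-5p, with 1 count, in normal replicate 4, and miR-92a-2-5p, with none. A count of 0 allows up to 3 counts, or 0.226 to 0.256 CPM, in a library; this covers counting error only.

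Related miRNAs of the same seeds lie outside both clusters, and 8 rows for them were in the table. They are shown to set the clusters against the X paralog and against miR-92b and miR-32, which come from other chromosomes.
miR-20b-5p: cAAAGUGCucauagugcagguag
miR-363-3p: aAUUGCACgguauccaucugu
miR-92b-3p: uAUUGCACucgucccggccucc
miR-32-5p: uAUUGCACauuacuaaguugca
None of the 8 was called. miR-20b-5p, with the miR-17-5p seed, had 82.6, 76.4 and 110.7 CPM in ARM and 72.3, 84.3 and 74.6 CPM in normal cords (log2 fold change 0.22 ± 0.15 SE in edgeR, adjusted p 0.934). Its log2 fold change was 0.038 without ARM replicate 6. miR-363-3p, with the miR-25-3p seed, had 819.7, 772 and 979.6 CPM in ARM and 689, 799.8 and 756 CPM in normal cords (0.20 ± 0.10 SE in edgeR, adjusted p 0.934), and a log2 fold change of 0.083 without ARM replicate 6. Both of these X-linked miRNAs were highest in ARM replicate 6, by 0.53 and 0.34 on the log2 scale over the median of the other 5 libraries. The strands opposite them were not raised in that library. By the same measure miR-20b-3p stood at -0.041 and miR-363-5p at -0.29. In level, miR-20b-5p lay below every AAAGUGC strand of the clusters, and miR-363-3p below miR-25-3p and miR-92a-3p. miR-363-5p, the sparse strand opposite miR-363-3p, had 1.21, 1.05 and 1.10 CPM in ARM and 1.45, 1.92 and 1.39 CPM in normal cords, so that all 3 ARM libraries lay below all 3 normal ones (log2 fold change -0.50 ± 0.27 SE in edgeR, adjusted p 0.934). miR-363-5p had only 13 to 25 counts in a library. The groups overlapped for the other 7 related rows, and they did not overlap in 8.57% of all tested rows.

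miR-92b-3p, which in the mouse has been linked to neural progenitors of the cortex, shares its first 9 bases with miR-92a-3p and differs by U10C and G21C. It had 643, 672 and 732 CPM in ARM and 723, 756 and 746 CPM in normal cords, so the groups overlapped (log2 fold change -0.12 ± 0.068 SE in edgeR, adjusted p 0.934). Leaving out ARM replicate 6 gave -0.18 (unadjusted p 0.0375, adjusted p 0.656 in edgeR). Per 100 counts of miR-92a-3p there were 42.6, 41.9 and 36.7 counts of miR-92b-3p in ARM cords, against 48.4, 45.4 and 49.6 in normal cords, and here all 3 ARM libraries lay below all 3 normal ones. This ratio was picked out after its values were seen, so it has no test. Among single miRNA rows, the groups did not overlap in 8.57% of those tested. In every other ratio between strands that was computed, the groups overlapped. miR-32-5p, again with the miR-25-3p seed, had 72.4, 78.3 and 61.1 CPM in ARM and 68.0, 79.1 and 87.0 CPM in normal cords.

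Summed by seed, the levels ranked the same way in both groups. The AAAGUGC strands of the clusters summed to 8027 ± 1071 CPM in ARM and 7550 ± 395 CPM in normal cords (SD, n = 3 each), and the AUUGCAC strands to 5356 ± 949 CPM in ARM and 4831 ± 359 CPM in normal cords. The direction of both turned without ARM replicate 6, with ARM means 0.983 and 0.996 times the normal means. The GUGCAAA strands summed to 530 ± 50.1 CPM in ARM and 580 ± 25.3 CPM in normal cords, and miR-18a-5p stood at 69.4 ± 5.28 CPM in ARM and 66.8 ± 1.21 CPM in normal cords. Outside the clusters, the AUUGCAC strands miR-92b-3p, miR-363-3p and miR-32-5p summed to 1610 ± 140.96 CPM in ARM and 1568 ± 79.8 CPM in normal cords. All of these groups overlapped, and the sums were given no test.

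The miRNAs whose levels followed the clusters most closely were ranked by Pearson's r over the 6 libraries, among 335 miRNAs outside both, as a description of libraries that share their depth and scaling. miR-423-3p came first for both, with an r of 0.97 with the miR-17/92 sum and 0.99 with the miR-106b/25 sum, and with 0.82 and 0.98 without ARM replicate 6. The next for miR-17/92 were miR-217-5p (0.94), miR-130b-5p (0.93), miR-20b-5p (0.93) and miR-30e-3p (0.92). With that library left out, the r with the miR-17/92 sum was 0.70 for miR-217-5p, 0.69 for miR-130b-5p, 0.47 for miR-20b-5p and 0.49 for miR-30e-3p. For miR-106b/25 the next were miR-219a-2-3p (0.96), miR-99b-3p (0.92), miR-20b-5p (0.91) and miR-363-3p (0.91). Without ARM replicate 6 the r with the miR-106b/25 sum was 0.90 for miR-219a-2-3p, 1.00 for miR-99b-3p, 0.53 for miR-20b-5p and 0.62 for miR-363-3p.

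Marker lists of other cell types were summed in the same libraries, with no test of the sums. In 4 of the 10 lists the groups did not overlap, and in the other 6 they did. Among single miRNA rows, the groups did not overlap in 45 of the 525 tested (8.57%). The lists were chosen with earlier results of these data known, so the count is a description. Summed miRNAs of cord neurons were at 26614, 23821 and 26999 CPM in ARM cords, all below the normal range of 28333 to 30811 CPM. That sum rests largely on miR-218a-5p, with a mean of 16370 CPM in ARM and 19874 CPM in normal cords. It therefore does not show a fall across the whole list. miR-9a strands were at 330080 to 347917 CPM in ARM cords, all above the normal 316164 to 327874 CPM. Smooth muscle miRNAs summed to 9360 to 10456 CPM in ARM and 8487 to 9304 CPM in normal cords, and leukocyte miRNAs to 73.4 to 85.87 CPM in ARM and 85.93 to 99.9 CPM in normal cords, with 2 of the 6 leukocyte rows at 0. Sensory neuron miRNAs summed to 14933, 8804 and 13064 CPM in ARM and 7125 to 9811.5 CPM in normal cords. Endothelial miRNAs summed to 9424 to 10731 CPM in ARM and 10216 to 10752 CPM in normal cords, and skeletal muscle miRNAs to 48.8 to 99.8 CPM in ARM and 28.8 to 104 CPM in normal cords. Red cell and platelet miRNAs summed to 3.40 to 3.54 CPM in ARM and 1.795 to 3.41 CPM in normal cords, with 4 of 6 rows at 0. No marker row passed the edgeR test, and the part of cell composition in the cluster values was not tested.

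The lncRNA libraries, with 3017868 to 4549756 counts, were searched for transcripts named after the host genes Mir17hg and Mcm7 and after 12 described targets and regulators of the clusters. Of these 14 genes 5 had 1 row each, and Mir17hg had none. Of the 4 rows tested, 0 were called by edgeR, against 7 of the 13584 lncRNA rows tested (0.0515%). The transcript Mcm7.d (chromosome 12, 19311587 to 19313080 in the deposited coordinates) had 55.8, 50.6 and 44.8 CPM in ARM and 27.4, 45.7 and 52.2 CPM in normal cords, a log2 fold change of 0.27 ± 0.25 (SE; adjusted p 1.00). Normal replicate 1 was the lowest library, and the groups overlapped. The value was 0.040 without normal replicate 1 and 0.46 without normal replicate 3. E2f1.d, named after an E2F factor, was at 23.7 ± 2.70 CPM in ARM and 19.98 ± 5.08 CPM in normal cords (SD, n = 3 each). Its edgeR log2 fold change was 0.24 ± 0.22 (SE), and 0.047 without normal replicate 1. Zbtb4.a, named after a transcriptional repressor that these miRNAs target in human cells, was at 266 ± 22.5 CPM in ARM and 256 ± 23.0 CPM in normal cords. Olig2.a, singled out after its values were seen, was too sparse to test, with 2, 7 and 4 counts in ARM and 2, 2 and 5 counts in normal cords. These rows are lncRNAs and not the messenger RNAs of the genes in their names.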

How the data were processed

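Small RNA and lncRNA libraries of lumbosacral cord were grouped by their sample titles. The authors deposited 1 table for each kind. The miRNA table holds whole read counts beside TPM, so named per the file headers, and the TPM of a row equalled its share of all counts of that library. The lncRNA table holds whole read counts beside FPKM, so named per the file headers, and gives the length and position of each transcript. The deposited counts entered the tests unchanged; TPM and FPKM did not enter them. The tools named are Cuffdiff, Cufflinks 2.1.1, TopHat2 2.0.9 and CASAVA 1.8, with build mm10, per the submitters' processing notes. The lncRNA table has 551 rows on chromosome 20, which the mouse lacks, so its coordinates are not those of mm10. For the small RNAs, the aligner, the counting rule and the catalogue release were not stated in those sources.

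In R 4.3.3, edgeR 4.0.16 was fitted to each whole table, without covariates, by its quasi-likelihood functions after filterByExpr and TMM scaling. Benjamini-Hochberg adjustment covered every tested row of a table, with a threshold of 0.05. Standard errors came from the F statistic. CPM used TMM-scaled totals over tested rows. DESeq2 1.42.0, other scalings, no filter, each library left out and a replicate block were tried as alternatives. Arm shares were compared with exact two-sided permutation tests. The fitting script was tested on simulated data. The members and lists were chosen with earlier results of these data known. All cluster rows and related miRNAs could be named, with the 5 rows most like each cluster by Pearson's r among those with a mean count of at least 100, each marker list's sum, and lncRNA rows named after the host genes and, of the targets, the 3 highest, of which 1 is not reported here. Leaving out each library for the sums, and ARM replicate 6 for the likeness and the count of directions, were chosen after seeing the data. No pair of replicates differed by as little as sampling noise (lowest chi-square per degree of freedom 33.8 for miRNA and 12.4 for lncRNA libraries).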

Additional observations from a re-analysis of the deposited data

How the results depend on the processing

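No cluster row passed the threshold under any alternative fit. The number of called miRNAs, 0 in the edgeR fit, was 7 with DESeq2 and ran from 0 to 3 when 1 library was left out, with 3 called without ARM replicate 6. Called lncRNAs, 7 in the edgeR fit, numbered 18 with DESeq2, 2 with the replicate block, and 10 to 18 with 1 library left out. Same-numbered miRNA libraries had correlations of deviations from the group means of 0.0072, -0.14 and 0.02. Other pairs of an ARM and a normal library ran from -0.12 to 0.18. With 3 libraries a group, these values cannot show whether the numbers pair the samples. The replicate block called 0 miRNAs, as did the fit without it. The log2 fold change of miR-106b-5p, 0.00088 in the edgeR fit, was -0.00015 with RLE size factors, -0.020 with total count scaling, -0.00016 with DESeq2, -0.010 with no filter and -0.012 without miR-9a-5p, and ran from -0.062 to 0.050 with 1 library left out. With 1 library left out, miR-17-5p ran from -0.0065 to 0.21, miR-20a-5p from -0.058 to 0.20, miR-25-3p from -0.015 to 0.26, miR-92a-3p from -0.0052 to 0.22, miR-93-5p from -0.037 to 0.16, miR-93-3p from -0.038 to 0.11, miR-18a-3p from -0.017 to 0.10, miR-19b-1-5p from -0.49 to 0.14, miR-92a-1-5p from -0.26 to 0.020, miR-20b-3p from -0.0088 to 0.061, miR-32-3p from -0.16 to 0.084 and Zbtb4.a from -0.022 to 0.13. The log2 ratio of the summed levels ran from -0.02 to 0.17 for miR-17/92 and from -0.0061 to 0.18 for miR-106b/25, lowest without ARM replicate 6 in both. With 1 library left out, 0 to 1 hairpins had arm shares that did not overlap. Smaller groups part more easily, and no share over other hairpins is given for comparison, so this count is a description. Of the 5 miRNAs most like each cluster, Spearman's rho kept 1 for miR-17/92 and 2 for miR-106b/25, and leaving out ARM replicate 6 kept 0 and 2. Of the other values, 444 for single miRNAs and transcripts and 44 for summaries kept their direction and side of the threshold or moved by less than the set limits. Among the cluster rows, miR-20a-3p and miR-19b-1-5p, both under 4 CPM, had intervals beyond a 1.5-fold difference.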
